A study of Musa acuminata AAA Group with 4 samples.

Results

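Leaf was set against root in banana plants (Musa acuminata, AAA Group, cultivar Cavendish, a triploid edible clone) that had been kept on a low-nitrogen solution for 60 days. The comparison used every gene of 2 RNA-seq libraries, low-N leaf and low-N root, out of the 4 libraries of the study. The other 2 libraries, normal-N leaf and normal-N root, came from plants given complete Hoagland solution for the same time, and they serve here only to show which tissue differences also stood without the shortage. All plants grew in clean sand in a chamber at 28 to 35 °C in Hainan. The aboveground sample is labelled leaf, but by the study's description it also held pseudostem, the trunk of rolled leaf sheaths. Each group was 1 library, and how many plants it pooled is not given in the sources used here.

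Leaves and roots divide the handling of nitrogen between them. Roots take up nitrate and ammonium through transport proteins, nitrate is reduced by nitrate reductase and nitrite reductase in either organ, and the resulting ammonium is joined to glutamate by glutamine synthetase. Most of a leaf's nitrogen lies in chloroplast proteins, above all in the carbon-fixing enzyme RuBisCO, and a plant short of nitrogen dismantles these proteins in older leaves and moves the amino acids to growing parts. Roots of plants short of nitrogen keep extending, which calls for new cell walls.

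With 1 library per group no test was possible, no p-value was computed and no difference has a replicate check. A gene counted as higher in a tissue when its log2 ratio of (FPKM + 1), leaf over root, reached 1 in either direction and the tissue with more of it reached 2 FPKM. FPKM is the authors' level per kilobase of gene, scaled to the library's fragments, and the added 1 makes the ratio understate the change of weakly expressed genes. A fold given for a gene is its ratio of expected counts scaled by library totals, with an exact Clopper-Pearson 95% interval in parentheses that covers counting error only. For a library with 0 counts the fold is a bound, since 3 counts were put in its place. The expected counts summed to 4144048 in low-N leaf, 4408992 in low-N root, 4164782 in normal-N leaf and 4393407 in normal-N root. A count of 0 allowed up to 0.724 FPKM in low-N leaf and 0.68 FPKM in low-N root for a gene of 1 kb.

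Of 30883 genes seen in either low-N library, 25802 passed the filter, and 5871 of these (22.8%) were higher in leaf and 9578 (37.1%) in root. The other 10353 genes past the filter differed by less than the size limit. The median log2 ratio was -0.35, so a typical gene had the lower FPKM in leaf, and 38.0% of the genes past the size limit were leaf-higher. Scaling the libraries in other ways moved that median up by 0.22 (median ratios), 0.17 (equal total FPKM), 0.17 (upper quartile) or 0.23 (totals without the 10 largest genes of each library). The size of the tilt towards root thus depends on the scaling, and the values below are as deposited unless stated.

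The leaf library was the more concentrated of the pair. Its 10 most counted genes held 7.28% of the counts (95% interval 7.26 to 7.31), against 3.76% in root (95% interval 3.75 to 3.78). In leaf 1283 genes made up 50% of the counts, against 1834 genes in root, and 26951 genes were detected in leaf against 29130 in root. Genes at 10 FPKM or more in one tissue and at 0 in the other numbered 216 in leaf and 734 in root. At 100 FPKM or more there were 15 such genes in leaf and 61 in root. Large differences were found in both directions: of the 25802 genes past the filter, 380 had a log2 ratio of 5 or more towards leaf and 549 towards root.

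Descriptions came from the authors' tables of genes filtered on low N over normal N, so a named gene is always one that those tables had picked. They gave 2713 genes (8.51% of the 31873 genes in any library) an informative description. Of the 2590 described genes past the filter, 894 (34.5%) were leaf-higher and 926 (35.8%) root-higher, with a median log2 ratio of 0.09, and each gene list below is read against these shares. Of leaf's 10 most counted genes 8 had no description, headed by Ma11_g22640 with 10013 FPKM in leaf and 12.7 FPKM in root. Root's 10 most counted genes included 3 with a description, a pair of polyphenol oxidases and a ribonuclease. The largest root-higher log2 ratio among the undescribed genes named here, -11.63, belonged to Ma11_g02100, with 0 FPKM in leaf and 3173 FPKM in root.

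**Figure D1:**
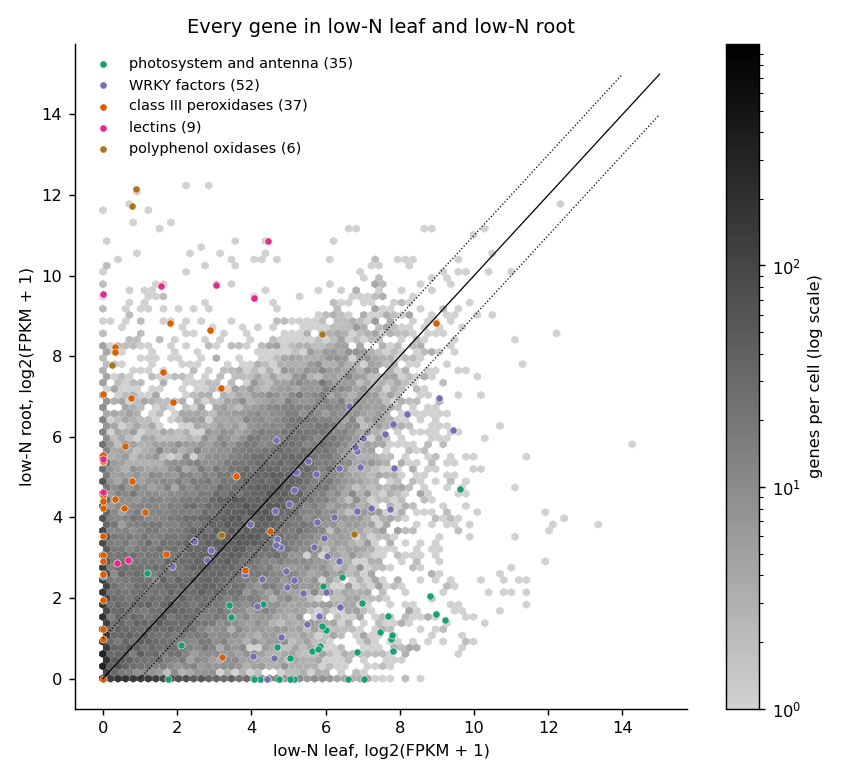
Level of each gene in low-N leaf (horizontal axis) and low-N root (vertical axis), both as log2 of FPKM + 1, with grey hexagons counting genes. Coloured points are members of 5 gene lists, the solid line marks equal levels and the dotted lines a log2 ratio of 1 in either direction; photosystem genes lie low on the right, while lectins and most peroxidases lie high on the left.

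The labelled tissues carried their markers, with limits on the root side. Photosystem and antenna genes, which make the light-harvesting complexes of leaf cells, summed to 4546 FPKM in leaf and 68.6 FPKM in root, and 10 of the 35 were at 0 in root. The endodermis and suberin list summed to 789 FPKM in leaf and 809 FPKM in root, because its search terms also caught a gene described as root phototropism protein 2-like, Ma11_g21910, with 484 FPKM in leaf and 34.4 FPKM in root. By count, 16 of the 25 members of that list past the filter were root-higher and 4 leaf-higher, and 5 members of the whole list were at 0 in leaf. The root-higher members include auxin-induced in root cultures 12-like Ma01_g00060, also on the auxin list, which gave 183 FPKM of the root sum. Genes on the list for secondary walls, which line xylem vessels and fibres, summed to 66.1 FPKM in leaf and 1464 FPKM in root. Of the root sum, 1033 FPKM came from 6 fasciclin-like proteins. The 3 secondary wall cellulose synthases summed to only 11.6 FPKM in leaf and 22.1 FPKM in root, with 2 root-higher and 1 under the size limit. Both subsets were taken after the values were seen. In such bulk samples fewer cells of a type and less RNA per cell cannot be told apart.

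**Figure D2:**
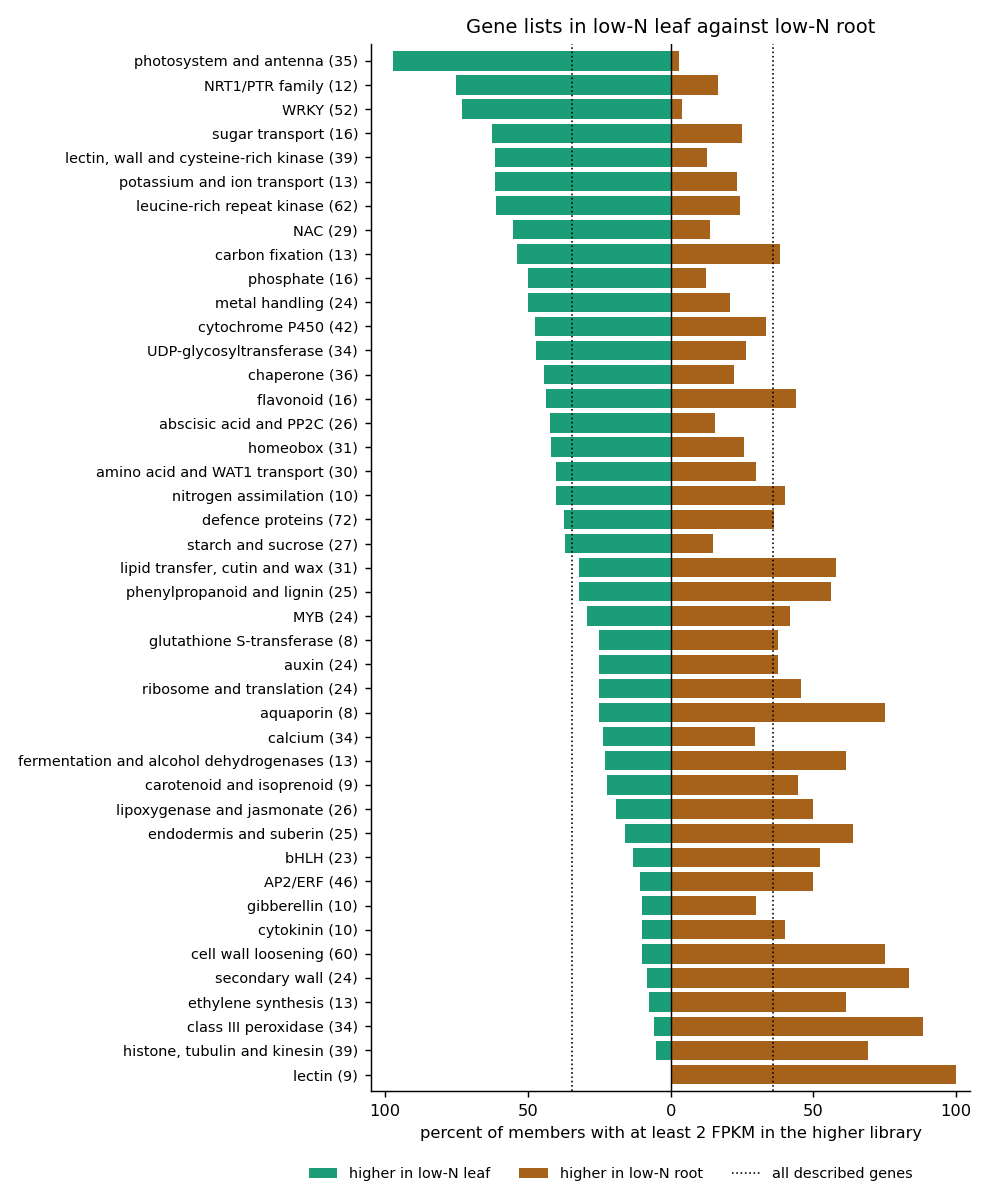
Share of each gene list's members past the filter that were higher in low-N leaf (green, to the left) or in low-N root (brown, to the right), in percent, with the number of members in brackets. Dotted lines mark the shares over all described genes, 34.5% leaf-higher and 35.8% root-higher; photosystem genes fill the top bar on the leaf side and lectins the bottom bar on the root side.

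Photosynthesis gave the most one-sided leaf list among those plotted. Of 35 photosystem and antenna genes, 34 were leaf-higher and 1 root-higher, with a median log2 ratio of 4.92, or 5.34 on the scale of counts with the genes at 0 set to their bound. A light-harvesting protein of photosystem II, Ma04_g07920, had 595 FPKM in leaf and 1.72 FPKM in root, a 345-fold higher count (158 to 940). An oxygen-evolving enhancer protein 2, Ma07_g08010, part of the complex that splits water, had 502 FPKM in leaf and 2.02 FPKM in root. Cytochrome b6-f subunit 7, Ma02_g18910, had 146 FPKM in leaf and 0 in root, at least 76.2-fold higher. These named members, from light capture to electron transport, were near or at the floor in root. The most abundant member, the oxygen-evolving enhancer protein 1 Ma08_g03860, had 788 FPKM in leaf and 25.1 FPKM in root.

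The exception was Ma05_g08930, described as a light-harvesting protein of photosystem II of type 1. It had 1.26 FPKM in leaf and 5.14 FPKM in root, a 4.23-fold lower count in leaf (1.39 to 17.2) that rests on 4 counts in leaf and 18 in root. A pair of chloroplast proteins outside the list were also among the largest leaf-higher ratios. CURVATURE THYLAKOID 1B, Ma08_g12110, which bends thylakoid membranes, had 528 FPKM in leaf and 1.38 FPKM in root, and peroxiredoxin Q, Ma05_g16490, had 449 FPKM in leaf and 1.81 FPKM in root.

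The carbon fixation list had members on both sides. Of 13 genes, 7 were leaf-higher and 5 root-higher, with a median of 1.24 (2.41 with zeros at their bound). The RuBisCO small subunit Ma02_g24600 had 19671 FPKM in leaf and 57.5 FPKM in root, a 341-fold higher count (287 to 407) and 1.03% of all leaf counts. Carbonic anhydrase 2-like Ma06_g29120, not on the list, whose family interconverts carbon dioxide and bicarbonate, had 2087 FPKM in leaf and 6.12 FPKM in root. A glyceraldehyde-3-phosphate dehydrogenase, Ma06_g17760, had 49.6 FPKM in leaf and 0 in root, at least 88.7-fold higher. These 3 named genes, the carbonic anhydrase and 2 of the Calvin cycle, stood on the leaf side by a wide margin.

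The root-higher members included enzymes outside the Calvin cycle and another RuBisCO gene. All 3 phosphoenolpyruvate carboxylases, a subset taken after the values were seen, were root-higher, and this enzyme outside the chloroplast makes organic acids. Phosphoenolpyruvate carboxylase 2-like Ma06_g28550 had 16.6 FPKM in leaf and 114 FPKM in root, a 6.92-fold lower count in leaf (5.97 to 8.06). This other gene described as a RuBisCO small subunit, Ma07_g15870, had 0.95 FPKM in leaf and 81.6 FPKM in root, 86-fold lower in leaf (23.5 to 715). With a filter of 10 FPKM the list's median was -1.18, and over genes listed in both libraries it was -0.0092, so its sign depends on which members are kept.

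Photorespiration, the salvage path that follows oxygenation by RuBisCO, had 3 described genes and all were leaf-higher. Serine hydroxymethyltransferase Ma07_g28730 had 392 FPKM in leaf and 1.90 FPKM in root, 207-fold higher (121 to 390). The glycine cleavage H protein Ma01_g01610 had 140 FPKM in leaf and 0 in root. Both proteins work in the mitochondrial conversion of glycine to serine, a step that releases ammonium.

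Genes of chlorophyll synthesis and of chlorophyll loss were both on the leaf side. For synthesis, 3 of 4 genes past the filter were leaf-higher, headed by protochlorophyllide reductase-like Ma11_g01810 with 97.3 FPKM in leaf and 1.5 FPKM in root. For breakdown and senescence, 5 of 6 were leaf-higher, and the root-higher one was a receptor kinase caught by a search term. Pheophorbide a oxygenase Ma04_g31690, which opens the chlorophyll ring, had 171 FPKM in leaf and 6.10 FPKM in root, 27.9-fold higher (20.7 to 38.6). STAY-GREEN-like Ma07_g18910, which starts chlorophyll removal, had 73.2 FPKM in leaf and 0.58 FPKM in root, against 11.5 FPKM in leaf and 0.29 FPKM in root under normal N.

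Nitrogen assimilation was divided between the tissues, with 4 of 10 genes leaf-higher, 4 root-higher and a median of 0.04. Nitrate reductase Ma09_g14900 had 906 FPKM in low-N leaf and 17.9 FPKM in low-N root, against 1052 FPKM in leaf and 314 FPKM in root under normal N. Nitrite reductase Ma09_g14720 had 374 FPKM in low-N leaf and 8.11 FPKM in low-N root, against 348 FPKM in leaf and 199 FPKM in root under normal N. Both reductases were leaf-higher under low N, by 50.5-fold (44.1 to 58.0) for nitrate reductase and 46.0-fold (36.0 to 59.8) for nitrite reductase. The 2 leaf libraries held similar levels of them, and the low-N root library held the lowest.

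Both named genes of glutamine synthetase, the enzyme that binds ammonium, lay on the root side. The nodule-isozyme-like gene Ma01_g15700 had 4.92 FPKM in low-N leaf and 36.7 FPKM in low-N root, against 5.64 FPKM in leaf and 360 FPKM in root under normal N. The cytosolic isozyme Ma08_g31320 had 7.49 FPKM in low-N leaf and 53.7 FPKM in low-N root, against 19.0 FPKM in leaf and 136 FPKM in root under normal N. Both were lower in low-N leaf than in low-N root by about the same margin, 7.43-fold (4.76 to 12.2) for Ma01_g15700 and 7.23-fold (5.02 to 10.7) for Ma08_g31320.

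The high-affinity nitrate uptake genes NRT2 and their partner NAR2, known for their activity in roots, were found on both sides. Of 4 genes past the filter, 2 were leaf-higher and 1 root-higher under low N, against 1 leaf-higher and 4 root-higher of 5 under normal N. Over all described genes under normal N, 23.3% were leaf-higher and 50.3% root-higher. The NAR2.1-like partner protein Ma06_g13610 had 255 FPKM in low-N leaf and 26.7 FPKM in low-N root, against 54.5 FPKM in leaf and 343 FPKM in root under normal N. Under low N it was thus 9.51-fold higher in leaf (7.41 to 12.4), the opposite of its direction under normal N. A second NAR2 gene, Ma09_g01900, named after its values were seen, had 22.1 FPKM in low-N leaf and 39.1 FPKM in low-N root, under the size limit, and 1.24 FPKM in leaf and 314 FPKM in root under normal N.

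The transporters themselves differed from each other. NRT2.3-like Ma04_g06400 had 119 FPKM in leaf and 7.57 FPKM in root, 15.5-fold higher (11.7 to 21.0). NRT2.1-like Ma08_g13030 had 9.47 FPKM in low-N leaf and 22.3 FPKM in low-N root, against 2.54 FPKM in leaf and 173 FPKM in root under normal N. It stayed root-higher under low N, 2.37-fold lower in leaf (1.76 to 3.23), with a smaller gap than under normal N, but it was under the size limit with median-ratio scaling.

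Among the NRT1/PTR family (NPF), which moves nitrate and other solutes, 9 of 12 genes were leaf-higher and 2 root-higher, with a median of 2.34 (2.94 with zeros at their bound). NPF6.3-like Ma01_g13520, a relative of the Arabidopsis nitrate transporter and sensor NRT1.1, had 83.9 FPKM in leaf and 1.97 FPKM in root, 42.4-fold higher (25.9 to 74.7). A second NPF6.3-like gene, Ma08_g10970, went the other way with 2.19 FPKM in leaf and 9.03 FPKM in root. NPF6.2-like Ma07_g08280 had 62.6 FPKM in leaf and 0.13 FPKM in root, a 481-fold higher count (85.9 to 19036) that rests on 1 root count. The strongest root gene of the family was NPF4.4-like Ma08_g08150, with 0 FPKM in leaf and 39.6 FPKM in root, at least 98.1-fold lower in leaf.

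Ammonium transporters were leaf-higher in 2 of 3 cases. Ammonium transporter 3 member 1-like Ma05_g28430 had 109 FPKM in low-N leaf and 5.27 FPKM in low-N root, against 7.22 FPKM in leaf and 3.57 FPKM in root under normal N. Its 20.7-fold higher count in leaf (14.7 to 30.2) stood under low N, while under normal N the pair was under the size limit. Ammonium transporter 2 member 1-like Ma04_g19270 had 21.3 FPKM in leaf and 7.98 FPKM in root.

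Amino acid transport genes, a list that also caught WAT1-related and ureide transporters, were leaf-higher in 12 of 30 cases and root-higher in 9, near the shares of described genes. The named leaf-higher members were amino acid transporters proper. Lysine histidine transporter 1-like Ma08_g32350, whose Arabidopsis relative imports amino acids into mesophyll and root cells, had 701 FPKM in leaf and 28.8 FPKM in root, 24.2-fold higher (20.8 to 28.4). Vacuolar amino acid transporter 1 Ma06_g08530 had 152 FPKM in leaf and 0.79 FPKM in root.

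**Figure D3:**
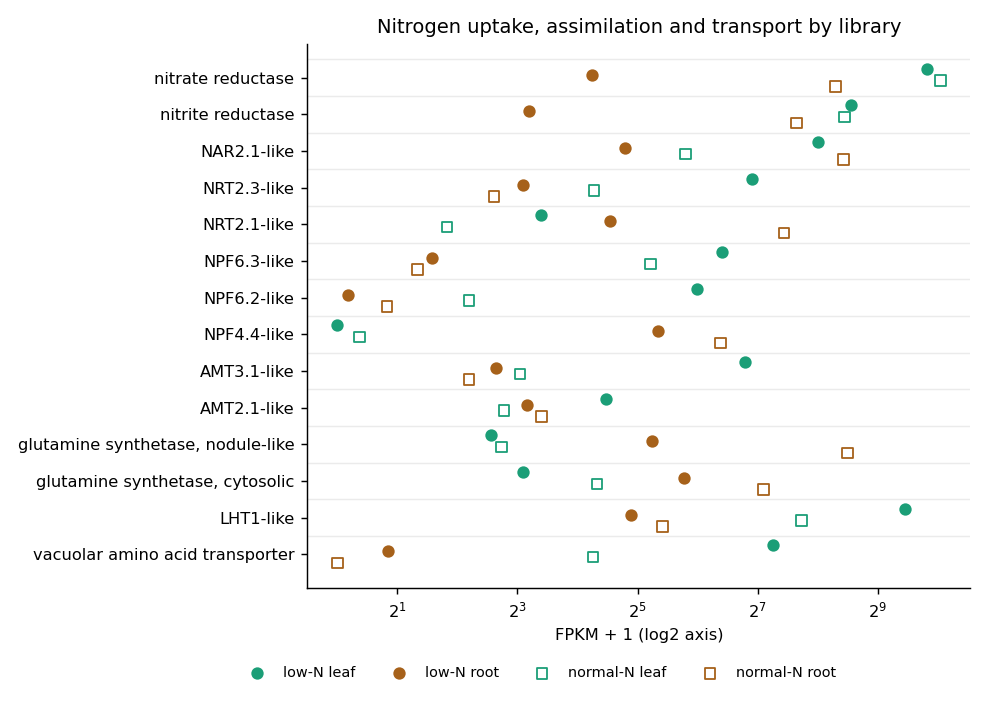
Levels of 14 genes of nitrogen uptake, assimilation and amino acid transport, as FPKM + 1 on a log2 axis, with filled circles for low-N libraries, open squares for normal-N libraries, green for leaf and brown for root. Nitrate reductase and nitrite reductase show low-N root far to the left of the other libraries, and the NAR2.1-like gene shows leaf and root in opposite order under the 2 supplies.

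Lists for other nutrients and sugars differed in their balance. Of 16 phosphate genes, 7 of them phosphate transporters of family 1, 8 were leaf-higher and 2 root-higher, and phosphate transporter 1-8 Ma04_g33330 had 760 FPKM in leaf and 32.2 FPKM in root, 23.5-fold higher (20.6 to 27.0). Of 13 potassium and ion transport genes, 8 were leaf-higher and 3 root-higher. Probable potassium transporter 11 Ma11_g16690 had 93.5 FPKM in leaf and 3.84 FPKM in root, while the cation transporter HKT2-like Ma06_g32660, a family that carries sodium and potassium, had 0 FPKM in leaf and 30.7 FPKM in root. Of 6 sulfate transport genes 2 were leaf-higher and 1 root-higher, with a median of -0.20 that turned to 0.25 under median-ratio scaling. Sugar transport counted 10 leaf-higher and 4 root-higher of 16. Polyol transporter 1 Ma01_g16140 had 1129 FPKM in leaf and 134 FPKM in root, 8.42-fold higher (7.86 to 9.03). Of the SWEET sugar exporters, Ma07_g14600 had 0.31 FPKM in leaf and 17.5 FPKM in root and Ma08_g25780 had 0 FPKM in leaf and 10.3 FPKM in root.

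Water channels lay mostly on the root side, with 6 of 8 root-higher, 2 leaf-higher and a median of -5.30 (-6.64 with zeros at their bound). All 6 genes described as vacuolar TIP2 or plasma membrane PIP channels, a subset taken after the values were seen, were root-higher. TIP2-1 Ma11_g19380 had 0.98 FPKM in leaf and 460 FPKM in root, 470-fold lower in leaf (160 to 2280), and TIP2-2 Ma06_g07460 had 0.67 FPKM in leaf and 322 FPKM in root. The 2 leaf-higher channels were of other classes. NIP2-1-like Ma05_g25720, whose rice relative carries silicon, had 14.1 FPKM in leaf and 0 in root, and TIP1-2 Ma10_g13630 had 35.3 FPKM in leaf and 3.03 FPKM in root.

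Cell wall lists lay mostly on the root side, under normal N as well as under low N. Under normal N, 34 of 36 class III peroxidases and 23 of 26 secondary wall genes were root-higher, with 1 and 3 leaf-higher. For wall loosening 50 of 59 and for endodermis and suberin 22 of 26 were root-higher, with 4 and 2 leaf-higher. Over all described genes under normal N, 50.3% were root-higher. The counts that follow are for low N. Class III peroxidases, secreted enzymes that cross-link wall phenolics or loosen walls, were root-higher in 30 of 34 cases and leaf-higher in 2, with a median of -4.32 (-4.93 with zeros at their bound). Of the 37 described peroxidases, 18 were at 0 in leaf and 1 at 0 in root. Peroxidase P7-like Ma02_g17250 had 0.26 FPKM in leaf and 299 FPKM in root, a 1149-fold lower count in leaf (206 to 45403) resting on 1 leaf count. Peroxidase 1-like Ma06_g23680 had 0.25 FPKM in leaf and 275 FPKM in root. The most abundant peroxidase, cationic peroxidase SPC4-like Ma10_g15940, was under the size limit with 504 FPKM in leaf and 449 FPKM in root, and it made up most of the list's 587 FPKM in leaf, against a list sum of 3102 FPKM in root.

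Secondary wall genes were root-higher in 20 of 24 cases and leaf-higher in 2, with a median of -2.89 (-4.10 with zeros at their bound). Fasciclin-like arabinogalactan protein Ma10_g15240, from a family of wall-anchored glycoproteins, had 0.23 FPKM in leaf and 297 FPKM in root, and Ma11_g02980 of the same family had 0.56 FPKM in leaf and 293 FPKM in root. All 6 fasciclin-like proteins past the filter were root-higher, in a subset taken after the values were seen. On the leaf side stood trichome birefringence-like 31 Ma02_g17210, from a family that adds acetyl groups to wall sugars, with 15.9 FPKM in leaf and 0.38 FPKM in root.

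Wall-loosening and growth genes were root-higher in 45 of 60 cases and leaf-higher in 6, with a median of -2.58 (-3.08 with zeros at their bound). A xyloglucan endotransglucosylase, Ma07_g02600, which cuts and rejoins wall polymers, had 1.37 FPKM in leaf and 749 FPKM in root, 549-fold lower in leaf (235 to 1692). Leucine-rich repeat extensin-like Ma09_g13640, a structural wall protein, had 0.49 FPKM in leaf and 268 FPKM in root. Subsets taken after the values were seen showed 6 of 6 expansins, 10 of 12 extensins and 11 of 16 xyloglucan endotransglucosylases root-higher. A xyloglucan endotransglucosylase on the leaf side, Ma04_g33940, had 152 FPKM in leaf and 30.7 FPKM in root.

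The endodermis and suberin list, whose layer seals the root's water path, had 16 of 25 genes root-higher. Auxin-induced in root cultures 12-like Ma01_g00060 had 0.44 FPKM in leaf and 183 FPKM in root, 418-fold lower in leaf (74.7 to 16557) on 1 leaf count. Its description names neither endodermis nor suberin, and it is also on the auxin list. Dirigent protein 23-like Ma03_g22920, from a family that steers lignin and lignan coupling, had 0 FPKM in leaf and 59.7 FPKM in root, at least 46.1-fold lower in leaf.

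Genes for cell division and microtubules were root-higher in 27 of 39 cases and leaf-higher in 2, with a median of -1.90 (-2.80 with zeros at their bound). Under normal N 26 of 39 were root-higher and 3 leaf-higher. The 2 genes leaf-higher under low N included a chloroplast ribosome-recycling factor, Ma07_g07510, which is no cell-cycle gene. All 6 tubulins and 11 of 12 kinesins were root-higher, in subsets taken after the values were seen. The kinesins were matched by description and include a kinesin light chain, so not all are motor proteins of the spindle or the cell plate. Tubulin beta-7 Ma05_g16910 had 24.4 FPKM in leaf and 570 FPKM in root, 23.4-fold lower in leaf (19.7 to 28.0). Tubulin beta-7-like Ma05_g10460 had 0 FPKM in leaf and 76.8 FPKM in root. Histones did not share this split, with 6 of 8 under the size limit, 2 root-higher and a median of -0.16 that turned to 0.06 under median-ratio scaling.

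The described genes of protein synthesis differed by compartment. Across 24 ribosome and translation genes, 6 were leaf-higher and 11 root-higher. A set of 8 chloroplast translation genes was drawn from all described genes, not only this list, and includes the ribosome-recycling factor Ma07_g07510. Of these, 7 were leaf-higher and none root-higher, with a median of 2.06. Of 9 cytosolic ribosomal proteins, 8 were root-higher and none leaf-higher, with a median of -2.03. Both subsets were taken after the values were seen. The chloroplast 50S protein L9 Ma09_g24070 had 92.4 FPKM in leaf and 11.8 FPKM in root, 7.77-fold higher (5.29 to 11.8). The cytosolic 60S protein L37a Ma06_g23310 had 11.6 FPKM in leaf and 130 FPKM in root, 11.3-fold lower in leaf (6.26 to 22.3).

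Several of root's most abundant described genes belong to families known from plant defence. Polyphenol oxidases, which oxidise phenolics and brown cut banana tissue, were root-higher in 4 of 6 cases and leaf-higher in 1. Polyphenol oxidase Ma08_g09160 had 0.84 FPKM in low-N leaf and 4527 FPKM in low-N root, against 9.27 FPKM in leaf and 468 FPKM in root under normal N, and Ma08_g09150 had 0.71 FPKM in low-N leaf and 3391 FPKM in low-N root, against 25.6 FPKM in leaf and 348 FPKM in root under normal N. These 2 genes had the lowest scaled count in leaf relative to root among the oxidases, 5776-fold lower (2475 to 17789) for Ma08_g09160 and 5050-fold lower (2164 to 15555) for Ma08_g09150, each on 5 leaf counts. Another oxidase, Ma08_g34740, was on the leaf side with 108 FPKM in leaf and 11.0 FPKM in root. Tyrosine/DOPA decarboxylase 2-like Ma07_g07900, from a family whose product dopamine is a substrate of polyphenol oxidase, had 0.15 FPKM in leaf and 444 FPKM in root.

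Soluble lectins, proteins that bind mannose and glucose chains, were root-higher in 9 of 9 cases with a median of -5.46. The mannose/glucose-specific lectin Ma09_g10440 had 21.0 FPKM in low-N leaf and 1869 FPKM in low-N root, against 117 FPKM in leaf and 6270 FPKM in root under normal N. A second, Ma09_g10470, had 0 FPKM in leaf and 742 FPKM in root, at least 413-fold lower in leaf. The mannose-specific lectin Ma06_g16670 had 1.95 FPKM in leaf and 849 FPKM in root.

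Proteinase inhibitors and a ribonuclease shared this pattern. All 5 Bowman-Birk inhibitors, small proteins that block digestive proteases, were root-higher in a subset taken after the values were seen. Ma05_g10670 had 6.04 FPKM in leaf and 4826 FPKM in root, 801-fold lower in leaf (435 to 1670), and Ma04_g24980 had 0.82 FPKM in leaf and 1489 FPKM in root. Ribonuclease 3-like Ma04_g08930 had 4.07 FPKM in leaf and 4788 FPKM in root, 1180-fold lower in leaf (675 to 2285). Hevamine-A-like Ma08_g33260, a relative of a chitinase of rubber tree latex, had 0.28 FPKM in leaf and 1389 FPKM in root, while cysteine proteinase inhibitor A-like Ma11_g18530 ran the other way with 453 FPKM in leaf and 23.3 FPKM in root.

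The whole list of pathogenesis-related and defence proteins was balanced, with 27 of 72 leaf-higher and 26 root-higher. Its parts were not alike. In subsets taken after the values were seen, 16 of 23 intracellular resistance proteins, receptors that sense pathogen effectors, were leaf-higher and none root-higher, with a median of 1.61. Among 10 pathogenesis-related proteins 5 were root-higher and none leaf-higher, and among 13 chitinases 6 were root-higher and 3 leaf-higher. Under normal N the resistance proteins counted 6 leaf-higher and 5 root-higher of 22, or 10 and 3 with median-ratio scaling.

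Lipoxygenases and jasmonate genes counted 13 root-higher and 5 leaf-higher of 26. The root side was led by 9S-lipoxygenases, which oxidise linoleic acid, with 7 of 8 root-higher in a subset taken after the values were seen. Ma06_g26840 had 1.39 FPKM in leaf and 546 FPKM in root, 395-fold lower in leaf (226 to 764), and Ma01_g16400 had 37.7 FPKM in leaf and 679 FPKM in root. 12-oxophytodienoate reductase Ma06_g18840, from a family with members in jasmonate synthesis, had 231 FPKM in leaf and 8.39 FPKM in root.

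Of 25 phenylpropanoid and lignin genes 14 were root-higher and 8 leaf-higher, with a median of -1.50 (-2.85 with zeros at their bound). That median was 0.35 with a filter of 10 FPKM and 0.017 over genes listed in both libraries, so its sign depends on the weakly expressed members. The 14 root-higher genes included all 8 laccases past the filter, which polymerise lignin, a subset taken after the values were seen. On the leaf side, phenylalanine ammonia-lyase-like Ma01_g04420, the first step from phenylalanine, had 611 FPKM in leaf and 81.0 FPKM in root. 4-coumarate--CoA ligase-like 10 Ma07_g18310 had 4795 FPKM in leaf and 379 FPKM in root, 12.6-fold higher (12.1 to 13.1). It gave most of the list's 6927 FPKM in leaf. It was listed by its description alone, and whether it acts in lignin synthesis was not tested.

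Flavonoid genes were even, with 7 leaf-higher and 7 root-higher of 16. Chalcone synthase 2-like Ma10_g12390, the first step of the branch, had 279 FPKM in leaf and 73.4 FPKM in root, while leucoanthocyanidin dioxygenase-like Ma05_g03850, a late step towards anthocyanins and tannins, had 0.67 FPKM in leaf and 306 FPKM in root, 458-fold lower in leaf (156 to 2224). Glutathione S-transferase F12-like Ma04_g11710, whose Arabidopsis relative carries anthocyanins to the vacuole, had 9.29 FPKM in leaf and 215 FPKM in root.

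Regulators leaned to leaf in some families and to root in others. WRKY factors, plant regulators tied to defence and senescence, were leaf-higher in 38 of 52 cases and root-higher in 2, with a median of 1.75. Under normal N the same list counted 11 leaf-higher and 17 root-higher, with a median of -0.38, and with median-ratio scaling 17 leaf-higher and 12 root-higher, with a median of 0.10. WRKY 26 Ma06_g01150 had 687 FPKM in low-N leaf and 71.5 FPKM in low-N root, against 127 FPKM in leaf and 67.4 FPKM in root under normal N, so the 2 root libraries were alike and low-N leaf stood apart. WRKY 31 Ma06_g15160 had 82.2 FPKM in low-N leaf and 2.41 FPKM in low-N root, against 11.6 FPKM in leaf and 5.90 FPKM in root under normal N. The root-higher WRKY 17 Ma10_g23330 had 24.3 FPKM in leaf and 59.5 FPKM in root.

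NAC factors, several of which act in leaf senescence, were leaf-higher in 16 of 29 cases and root-higher in 4. Under normal N the NAC list counted 10 leaf-higher and 11 root-higher of 32. NAC 29-like Ma06_g33980 had 316 FPKM in leaf and 51.2 FPKM in root, 6.15-fold higher (5.35 to 7.09), and NAC 90-like Ma10_g04550 had 88.0 FPKM in leaf and 5.57 FPKM in root. AP2/ERF factors, which include the ethylene-responsive factors, went the other way with 23 of 46 root-higher and 5 leaf-higher. They were more root-sided under normal N, with 34 of 47 root-higher and 3 leaf-higher. The most abundant AP2/ERF gene, Ma07_g03740, had 215 FPKM in leaf and 488 FPKM in root under low N, and Ma08_g19170 had 0 FPKM in leaf and 30.8 FPKM in root. The bHLH list counted 12 root-higher and 3 leaf-higher of 23, with bHLH18-like Ma03_g16110 at 0 FPKM in leaf and 55.6 FPKM in root. Under normal N it counted 15 root-higher and 4 leaf-higher of 23.

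Receptor kinases at the cell surface were mostly leaf-higher. Of 62 leucine-rich repeat kinases, 38 were leaf-higher and 15 root-higher, with a median of 1.77 (2.22 with zeros at their bound), against 17 leaf-higher and 19 root-higher of 51 under normal N, where median-ratio scaling gave 22 and 16 of 53. Of 39 lectin-type, wall-associated and cysteine-rich kinases, 24 were leaf-higher and 5 root-higher, against 10 leaf-higher and 14 root-higher of 37 under normal N, where median-ratio scaling gave 13 and 13. The LRR kinase Ma04_g32780 had 57.3 FPKM in leaf and 1.07 FPKM in root, 51.6-fold higher (30.0 to 97.5). G-type lectin kinase Ma03_g11510 had 190 FPKM in leaf and 17.3 FPKM in root, and the L-type lectin kinase Ma09_g11910 had 30.8 FPKM in leaf and 112 FPKM in root. For every list counted under both supplies, WRKY, kinases and resistance proteins included, a move between supplies is no independent evidence. Each member was listed because the authors' filter had found a change between the supplies.

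Some genes that shared a description took opposite sides. Of 509 descriptions carried by at least 2 genes, 76 had a leaf-higher and a root-higher member, each at 5 FPKM or more in its higher library. Over all described genes past the filter, 34.5% were leaf-higher and 35.8% root-higher, so genes of unlike description often take opposite sides too. Whether a shared description makes such a split more or less frequent was not tested. Among germin-like proteins 2-1, extracellular proteins of the cupin family, Ma09_g31190 had 53.0 FPKM in leaf and 1.69 FPKM in root, while Ma05_g29070 had 19.3 FPKM in leaf and 756 FPKM in root. Among naringenin 3-dioxygenases, which make dihydroflavonols, Ma02_g12040 had 306 FPKM in leaf and 0.67 FPKM in root, while Ma02_g04650 had 13.4 FPKM in leaf and 185 FPKM in root. For the 36.4 kDa proline-rich proteins of the wall, Ma02_g03450 had 48.2 FPKM in leaf and 2.03 FPKM in root, and Ma01_g20030 had 0.35 FPKM in leaf and 316 FPKM in root. Each such pair puts genes of 1 description on both sides by more than 10-fold in count.

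The same held for acyltransferases and a repeat protein whose descriptions come from distant plants. For the pair described as 10-deacetylbaccatin III acetyltransferases, a yew enzyme name that says nothing of the banana product, Ma01_g17350 had 99.8 FPKM in leaf and 0 in root, and Ma03_g08400 had 0 FPKM in leaf and 10.1 FPKM in root. For debenzoyltaxol benzoyltransferases, Ma01_g17340 had 25.3 FPKM in leaf and 0 in root, and Ma06_g03420 had 0 FPKM in leaf and 18.0 FPKM in root. For DRT100, a leucine-rich repeat protein, Ma03_g03640 had 15.8 FPKM in leaf and 0.4 FPKM in root, and Ma04_g26530 had 0 FPKM in leaf and 63.5 FPKM in root. Counts of near-identical copies can be shared out wrongly between them, and how the counting treated such reads is not given in the sources used here.

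**Figure D4:**
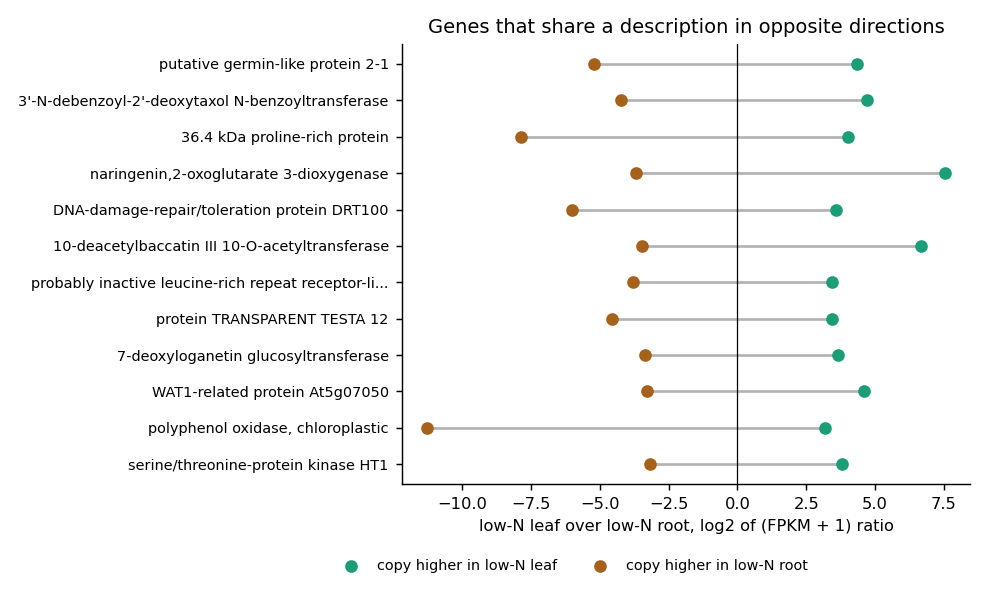
Log2 ratio of low-N leaf over low-N root for pairs of genes with 1 shared description, for the 12 descriptions with the largest opposite ratios. Green points are the leaf-higher copy and brown points the root-higher copy; the germin-like pair spans 4.33 to -5.22 and the polyphenol oxidase pair 3.19 to -11.27.

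Most of the tissue difference stood under both supplies. Under normal N, 5179 of 25724 genes past the filter (20.1%) were leaf-higher and 10863 (42.2%) root-higher, with a median log2 ratio of -0.63, and 32.3% of the genes past the size limit were leaf-higher, or 44.8% under median-ratio scaling. The same side was taken under both supplies by 4050 leaf-higher genes, which is 69.0% of the low-N leaf list and 78.2% of the normal-N leaf list. For root, 8010 genes were shared, 83.6% of the low-N list and 73.7% of the normal-N list. A further 1726 genes were leaf-higher and 1533 root-higher under low N without passing on either side under normal N.

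Opposite sides were rare. In 130 genes the direction differed between the supplies, 95 of them leaf-higher under low N and root-higher under normal N, and 35 the reverse. With 1 library per group these differences of differences have no error, and none was tested. Of the described genes at 5 FPKM or more in both higher libraries, 40 were leaf-higher under low N and root-higher under normal N, and 6 were the reverse. The description itself required a change between the supplies in the authors' tables, so the 40 and 6 are counts over selected genes. The cause of the imbalance, here or over all genes, was not tested.

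The genes that turned towards leaf under low N included regulators and an uptake partner. NAC 48-like Ma06_g19100 had 23.4 FPKM in low-N leaf and 1.62 FPKM in low-N root, against 3.12 FPKM in leaf and 15.5 FPKM in root under normal N, the same switch as the NAR2.1-like gene. WRKY 9 Ma07_g20190 had 16.9 FPKM in low-N leaf and 2.50 FPKM in low-N root, against 4.25 FPKM in leaf and 16.2 FPKM in root under normal N. In each, the leaf level was higher and the root level lower under low N than under normal N.

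In the other direction stood enzymes and a division gene. Ribonuclease 3-like Ma09_g07590 had 0.61 FPKM in low-N leaf and 124 FPKM in low-N root, against 267 FPKM in leaf and 118 FPKM in root under normal N. Its root libraries were alike, and its leaf level rested on 2 counts under low N. Beta-galactosidase-like Ma02_g18550, from a family that trims wall sugars, had 0.76 FPKM in low-N leaf and 7.41 FPKM in low-N root, against 11.8 FPKM in leaf and 0.63 FPKM in root under normal N. Kinesin NACK1 Ma02_g13770, which acts in building the cell plate in tobacco, had 1.67 FPKM in low-N leaf and 6.25 FPKM in low-N root, against 15.6 FPKM in leaf and 6.33 FPKM in root under normal N.

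**Figure D5:**
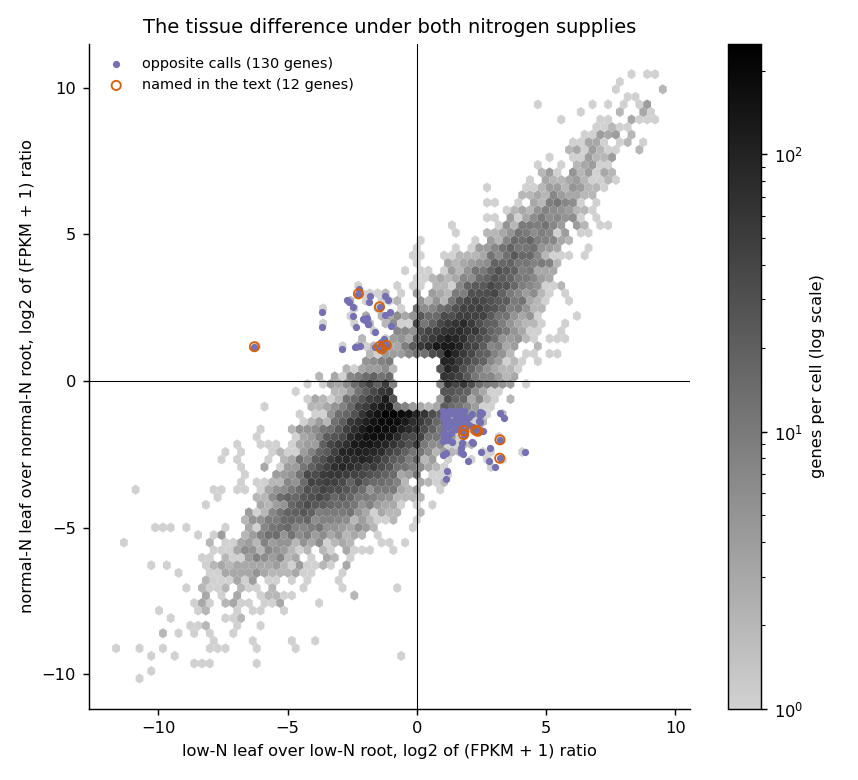
Log2 ratio of leaf over root under low N (horizontal axis) and under normal N (vertical axis) for genes past the size limit under either supply, with grey hexagons counting genes. Purple points are the 130 genes on opposite sides and orange rings the 12 of them named in the text; most genes lie along the rising diagonal, and Ma09_g07590 is the ring at -6.28 under low N.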

How the data were processed

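Poly(A) RNA of 4 samples was extracted with CTAB and copied with random hexamers, per the labels' protocols. The protocol names no strand-marking step, so antisense and overlapping genes cannot be told apart. BWA and Bowtie are named, without versions, in the submitters' processing notes; the counting tool and genome build were not given in these sources. Per the file headers, the authors deposited an expected count (an estimated number of fragments) and an FPKM per gene and library. Of gene lengths 94.4% were divisible by 3, so they were taken as coding lengths. The authors' deposited tables of low N over normal N hold a log2 ratio with a p-value and FDR per gene; only their descriptions were used. None of the gene IDs (0) matched the reference gene table, so no coordinates or sequences are given.

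A gene missing from a library was read as 0. Ratios were log2 of (FPKM + 1), with a filter of 2 FPKM and a size limit of 1. Folds used expected counts rounded to whole numbers. Medians "with zeros at their bound" are over log2 count ratios in which 0 stands as 3 counts; over all described genes that median was 0.09. Named genes were the 10 largest described ratios per direction at 10 FPKM or more, the 10 most counted described genes per library, up to 2 genes per direction and the most abundant gene of each list (5 FPKM or more), the 6 leading descriptions with genes on both sides, and 6 genes per direction whose side differed between supplies. The 53 lists are search terms on the BLAST description and were chosen, like the comparison itself, with earlier results of these data known; 24 subsets were taken after the values were seen. The steps were tested on simulated counts. Alternatives were other pseudocounts, filters, size limits and scalings, genes listed in both libraries, and KEGG text in the searches. Python 3.11.15, NumPy 2.4.6, pandas 2.3.3 and SciPy 1.17.1 were used.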

Additional observations from a re-analysis of the deposited data

Results flagged for a closer look

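Each gene here was higher in leaf under one nitrogen supply and higher in root under the other, which is what singled it out, and the value given is its log2 ratio of leaf over root under low N minus that under normal N. With 1 library per group none of these differences was tested.

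The difference was 5.84 for the NAR2.1-like nitrate uptake partner Ma06_g13610 and 5.22 for NAC 48-like Ma06_g19100. It was 4.07 for WRKY 9 Ma07_g20190. Carboxylesterase 17 Ma06_g18440 gave 3.96, with 41.7 FPKM in low-N leaf and 7.76 FPKM in low-N root, against 5.26 FPKM in leaf and 19.0 FPKM in root under normal N. The RING-H2 protein ATL17-like Ma08_g10110, from a family of ubiquitin ligases, gave 3.64, with 32.7 FPKM in low-N leaf and 8.60 FPKM in low-N root, against 6.27 FPKM in leaf and 24.8 FPKM in root under normal N. The Lea5-like protein Ma11_g16650, of a family that accumulates in drying tissue, gave 3.51, with 354 FPKM in low-N leaf and 99.5 FPKM in low-N root, against 77.5 FPKM in leaf and 252 FPKM in root under normal N.

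On the other side the difference was -7.45 for ribonuclease 3-like Ma09_g07590, -5.23 for beta-galactosidase-like Ma02_g18550 and -2.62 for kinesin NACK1 Ma02_g13770. It was -3.97 for the light-harvesting protein Ma05_g08930, with 1.26 FPKM in low-N leaf and 5.14 FPKM in low-N root, against 34.6 FPKM in leaf and 5.17 FPKM in root under normal N. The peroxisomal acyl-CoA ligase AAE7-like Ma09_g15890 gave -2.40, with 62.4 FPKM in low-N leaf and 143 FPKM in low-N root, against 129 FPKM in leaf and 54.6 FPKM in root under normal N. CBL-interacting kinase 1-like Ma08_g10700, part of a calcium-sensing pair, gave -2.46, with 2.77 FPKM in low-N leaf and 8.66 FPKM in low-N root, against 12.7 FPKM in leaf and 5.38 FPKM in root under normal N.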

How the results depend on the processing

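No paired analysis was possible because the labels give no replicate numbers and each group is 1 library, and for the same reason no library could be left out. Of 54 values of the main counts and shares under alternatives, 42 stayed near the main value and 12 moved. A size limit of 2 left 3044 leaf-higher genes, 5336 root-higher genes, 6265 genes on the same side under both supplies, 19 genes on opposite sides and 29 descriptions with genes on both sides. The 130 genes on opposite sides were 214 with a pseudocount of 0.1, 29 with a pseudocount of 5, 197 without the filter and 53 with a filter of 10 FPKM, so that count depends on weak genes. As a share of FPKM, the 10 largest genes held 7.83% in low-N leaf, 12.3% in normal-N leaf and 3.67% in normal-N root. The medians that changed sign were those of carbon fixation (-1.18 at 10 FPKM, -0.0092 over genes listed in both libraries), phenylpropanoid and lignin (0.35 and 0.017) and the 3 secondary wall cellulose synthases (-2.72, against 0.30 at 10 FPKM). The cause of these changes was not tested beyond the change in members kept. For list values 191 of 2469 moved, and for the 254 named genes 144 of 2491. Under scalings the medians of the sulfate, gibberellin, glutathione S-transferase and histone lists, all near 0, changed sign, and of the 12 named genes on opposite sides 11 still passed the size limit under both supplies with median-ratio scaling. Counts of 5 or fewer fragments limit the folds of the strongest root genes.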

Other observations

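Hormone genes were spread over both tissues. Of 26 abscisic acid and PP2C genes 11 were leaf-higher and 4 root-higher, and of 24 auxin genes 6 were leaf-higher and 9 root-higher. The auxin-responsive repressor IAA30-like Ma04_g29070 had 0 FPKM in leaf and 195 FPKM in root, at least 202-fold lower in leaf, while the auxin efflux carrier Ma06_g01320 had 36.3 FPKM in leaf and 0 in root. Of 10 cytokinin genes past the filter 1 was leaf-higher and 4 root-higher. The leaf-higher one, the cytokinin-activating phosphoribohydrolase Ma01_g02620, had 330 FPKM in leaf and 5.93 FPKM in root. Another gene described as this enzyme, Ma01_g22180, had 0 FPKM in leaf and 20.3 FPKM in root. The cytokinin-degrading dehydrogenase 3-like Ma05_g21640 had 0 FPKM in leaf and 25.4 FPKM in root. Gibberellin-regulated protein 6-like Ma07_g19330 had 3.98 FPKM in leaf and 1088 FPKM in root, 274-fold lower in leaf (117 to 846). The ethylene list, which also holds signalling genes, had 8 of 13 root-higher and 1 leaf-higher, and all 7 ACC synthase and oxidase genes, which make ethylene, were root-higher in a subset taken after the values were seen.

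Cytochrome P450 genes counted 20 leaf-higher and 14 root-higher of 42. CYP72A genes, a subset taken after the values were seen, were leaf-higher in 7 of 10 cases and root-higher in none. Both genes described as P450 90B1, the name of an Arabidopsis enzyme of brassinosteroid synthesis, were root-higher, with Ma08_g27070 at 1.98 FPKM in leaf and 590 FPKM in root and Ma08_g27090 at 0 FPKM in leaf and 289 FPKM in root. Fermentation and alcohol dehydrogenase genes, a list that also caught lignin dehydrogenases, were root-higher in 8 of 13 cases and leaf-higher in 3. Alcohol dehydrogenase 3-like Ma06_g19900 had 0.63 FPKM in low-N leaf and 43.2 FPKM in low-N root, against 0 FPKM in leaf and 471 FPKM in root under normal N. Pyruvate decarboxylase 1-like Ma04_g16540 was leaf-higher with 79.4 FPKM in leaf and 29.6 FPKM in root.

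Metallothioneins, small metal-binding proteins, stood on both sides, with Ma06_g27920 at 2282 FPKM in leaf and 339 FPKM in root and Ma01_g10480 at 9.91 FPKM in leaf and 1268 FPKM in root. Lipid transfer proteins were mostly root-higher, 9 of 12 with 2 leaf-higher and a median of -4.16, in a subset taken after the values were seen. On the leaf side Ma04_g17200 had 580 FPKM in leaf and 1.38 FPKM in root, a 419-fold higher count (116 to 3463) on 2 root counts. On the root side Ma04_g16130, a DIR1-like gene, had 1.66 FPKM in leaf and 285 FPKM in root. Sucrose synthase 2-like Ma03_g01820, which splits sucrose, had 1.08 FPKM in leaf and 77.1 FPKM in root, and the small subunit of the starch enzyme ADP-glucose pyrophosphorylase Ma01_g00130 had 438 FPKM in leaf and 58.9 FPKM in root. YABBY 5-like Ma03_g32010, from a family of regulators of lateral organs, had 15.3 FPKM in leaf and 0 in root. Chaperone genes counted 16 leaf-higher and 8 root-higher of 36, and homeobox genes 13 leaf-higher and 8 root-higher of 31.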
